A study of Homo sapiens with 4 samples.

Results

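The 8 genes CDKN2A, CDKN2B, MTAP, SMAD4, ARID1A, KDM6A, RNF43 and BRCA2, which are recurrently inactivated in pancreatic ductal adenocarcinoma or lost together with such a gene, were read across 4 RNA-seq libraries. They were chosen by name, for their known role, and make up 8 of the 26255 gene symbols in the files. The libraries came from PSN-1 and MIA PaCa-2, established human pancreatic cancer cell lines, each transfected with a miR-4800-3p mimic (a synthetic double of the microRNA, labelled as overexpression) or with a scramble negative control oligonucleotide. The 4 groups were PSN-1 with mimic, PSN-1 with scramble, MIA PaCa-2 with mimic and MIA PaCa-2 with scramble, with 1 library each. The study was set up to look for target mRNAs of the microRNA.

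Each line stands for 1 tumour, and the sources used here give neither the dose nor the time of transfection. Nothing in the labels says that the 2 libraries of a line came from separate cultures beyond their different oligonucleotides. The p-values weigh a difference against how far the mimic change differed between the lines, moderated over genes, and not against a spread of repeat cultures. In bulk RNA, fewer cells expressing a gene and less RNA per cell cannot be told apart. The libraries held 16783 to 17294 symbols above 0 in PSN-1 and 15699 to 15747 in MIA PaCa-2, and 1 FPKM (fragments per kilobase of transcript, scaled to the mapped fragments of the library) stood for an estimated 12.6 to 15.9 fragments per kb of transcript. The lines are labelled as epithelial. The keratins KRT8 and KRT18 were at 495 to 665 FPKM in PSN-1 and 653 to 923 FPKM in MIA PaCa-2, while EPCAM was at 28.4 and 24.1 FPKM in PSN-1 and only 0.139 and 0.104 FPKM in MIA PaCa-2, and KRT7 was at 287 and 406 FPKM in PSN-1 and listed at 0 in MIA PaCa-2. E-cadherin (CDH1) was low in both lines, at 0.720 and 1.51 FPKM in PSN-1 and 0.335 and 0.170 FPKM in MIA PaCa-2. Summed over 7 fibroblast and stellate cell markers the level was 80.6 to 99.1 FPKM in PSN-1 and 67.3 to 84.9 FPKM in MIA PaCa-2, but different genes made it up: COL1A2 was at 0.0120 FPKM and a listed 0 in PSN-1 and at 59.9 and 76.8 FPKM in MIA PaCa-2, while COL3A1 was at 36.1 and 45.6 FPKM in PSN-1 and 7.03 and 7.72 FPKM in MIA PaCa-2, and LUM at 14.3 and 19.6 FPKM in PSN-1 and a listed 0 in MIA PaCa-2. The sum of 4 endothelial markers was 7.16 to 7.99 FPKM in PSN-1 and 0 to 0.0273 FPKM in MIA PaCa-2, and that of 4 acinar markers was 17.7 to 21.4 FPKM in PSN-1, nearly all of it PRSS1, and 0 in MIA PaCa-2. Of 6 leukocyte markers, summing to 43.7 to 44.3 FPKM in PSN-1 and 21.2 to 35.9 FPKM in MIA PaCa-2, CD68 made up most of the sum and CD3E was listed at 0 in all 4 libraries, as were the 3 islet hormones. The part of these markers in the differences between the lines was not tested.

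The chromosome band 9p21 carries CDKN2A, CDKN2B and MTAP side by side. CDKN2A encodes p16INK4A, an inhibitor of the kinases CDK4 and CDK6 that keep RB phosphorylated, and from a separate first exon p14ARF, which restrains the ubiquitin ligase MDM2. CDKN2B encodes p15INK4B, a second CDK4/6 inhibitor induced by TGF-beta, and MTAP salvages methionine from methylthioadenosine and is often lost as a passenger of CDKN2A deletions. SMAD4 is the common partner of the receptor-activated SMAD proteins in TGF-beta and BMP signalling. ARID1A is the DNA-binding subunit of a SWI/SNF chromatin remodelling complex, KDM6A removes methyl groups from histone H3 lysine 27, RNF43 is a ubiquitin ligase that clears Frizzled receptors from the cell surface, and BRCA2 acts in the repair of DNA breaks by homologous recombination. Many of these genes are inactivated in tumours by homozygous deletion, which leaves no transcript. Here DNA was not measured, and a deleted gene and a silent gene cannot be told apart from its transcript alone.

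The start-site windows of the 9p21 inhibitors are shown because the genes are neighbours on the minus strand and their transcripts differed sharply in PSN-1. They are RefSeq sequences of GRCh38.p14, from 250 bases before to 50 bases after each annotated start, read 5′ to 3′ on the minus strand: chr9:21995275-21995574 and chr9:21974808-21975107 for CDKN2A and chr9:22009256-22009555 for CDKN2B. Capitals mark GGGCGG or its reverse complement CCGCCC, the core of a GC box, and 45% of 35116 annotated promoter windows of this length hold it.
CDKN2A start 1: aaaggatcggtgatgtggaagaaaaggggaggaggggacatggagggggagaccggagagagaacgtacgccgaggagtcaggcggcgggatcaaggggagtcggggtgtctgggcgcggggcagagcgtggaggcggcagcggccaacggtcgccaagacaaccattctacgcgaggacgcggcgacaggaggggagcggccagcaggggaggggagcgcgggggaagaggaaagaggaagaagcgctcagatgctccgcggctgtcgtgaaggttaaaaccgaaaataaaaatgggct
CDKN2A start 2: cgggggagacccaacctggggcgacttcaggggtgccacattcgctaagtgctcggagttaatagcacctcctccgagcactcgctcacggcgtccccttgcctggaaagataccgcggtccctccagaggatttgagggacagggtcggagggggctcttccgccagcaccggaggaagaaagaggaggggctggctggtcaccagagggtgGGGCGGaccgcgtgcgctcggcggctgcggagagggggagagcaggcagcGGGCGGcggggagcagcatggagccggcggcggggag
CDKN2B: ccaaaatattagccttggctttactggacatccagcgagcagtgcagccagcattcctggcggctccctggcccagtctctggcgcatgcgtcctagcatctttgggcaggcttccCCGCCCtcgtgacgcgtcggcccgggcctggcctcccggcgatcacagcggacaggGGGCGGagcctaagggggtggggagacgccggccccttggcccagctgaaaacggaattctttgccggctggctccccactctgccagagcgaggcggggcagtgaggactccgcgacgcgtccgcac
The first CDKN2A window held 0 such boxes, the second CDKN2A window 2 and the CDKN2B window 2. The 3 windows held 28, 26 and 25 CpG dinucleotides, against a median of 14 over all promoter windows. The boxes are a description of the sequence, and methylation was not measured.

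The transfected microRNA, hsa-miR-4800-3p, is encoded at chr4:2250091-2250109 on the minus strand (GRCh38.p14), and its sequence is shown because its seed, bases 2 to 8 in capitals, sets which transcripts it could pair with.
hsa-miR-4800-3p: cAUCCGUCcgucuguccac
The 2 seed-matched sites searched were GACGGAT, which pairs with bases 2 to 8, and ACGGATA, which pairs with bases 2 to 7 and is followed by A. Only the transcript strand was searched, and the sites share the letters ACGGAT. No annotated protein-coding transcript (GENCODE 29) of the 8 genes held either site, in the coding sequence or in an untranslated region. Over all genes, 400 of 19010 (2.1%) held a site in their longest 3′ untranslated region.

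Of the 8 genes, 3 were expressed in 1 line only, 2 in both and 3 in neither. A gene was counted as present at 1 FPKM or more in both libraries of a line and as at or near 0 under 0.1 FPKM in both. CDKN2B and KDM6A were present in PSN-1 and listed at 0 in MIA PaCa-2, while SMAD4 was listed at 0 in PSN-1 and present in MIA PaCa-2. ARID1A and BRCA2 were present in both lines, and CDKN2A, MTAP and RNF43 in neither. Among the 12423 genes averaging 1 FPKM or more across all libraries, 4.05% were present in PSN-1 and at or near 0 in MIA PaCa-2, and 0.749% the other way round, 4.8% in all. An exact 0 in a file without counts can be a failed estimate. Each 0 of the 8 genes is therefore given as listed, without a fold change between the lines.

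**Figure D1:**
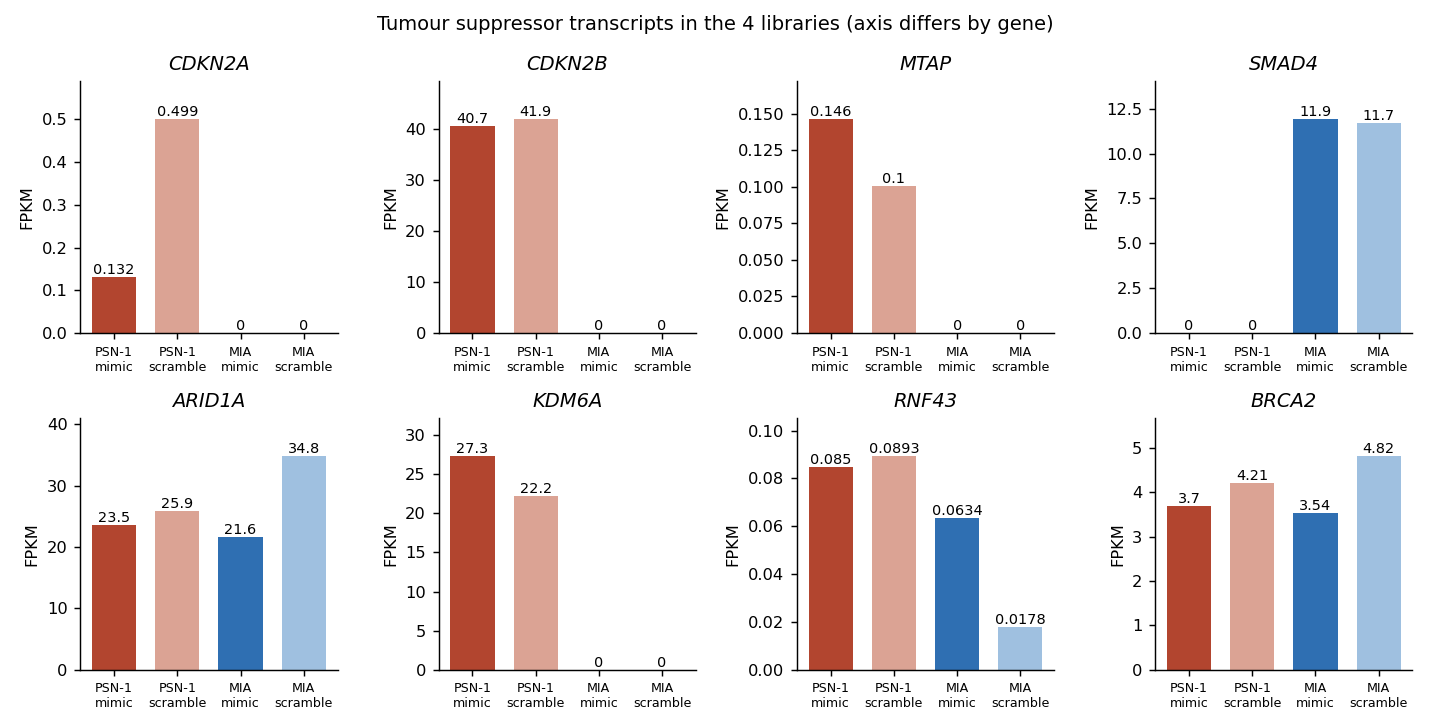
FPKM (vertical axes, which differ by gene) of the 8 tumour suppressor genes in each of the 4 libraries, 1 bar per library, PSN-1 in red and MIA PaCa-2 in blue, dark for mimic and light for scramble. CDKN2B and KDM6A have bars in PSN-1 only, SMAD4 in MIA PaCa-2 only, and the bars of CDKN2A, MTAP and RNF43 stay under 1 FPKM.

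At 9p21, CDKN2B (chr9:22002903-22009363, minus strand; GRCh38 coordinates from GENCODE 29, since the files were made on hg19 and hold none) was at 40.7 FPKM with mimic and 41.9 FPKM with scramble in PSN-1, against a listed 0 in both MIA PaCa-2 libraries. The PSN-1 values rest on an estimated 2408 and 1965 fragments. CDKN2A (chr9:21967753-21995301, minus strand) lies 7.602 kb from CDKN2B. In PSN-1 CDKN2A was nearly silent, at 0.132 FPKM with mimic and 0.499 FPKM with scramble, against a listed 0 in both MIA PaCa-2 libraries. An estimated 2.28 and 6.84 fragments lie behind these PSN-1 values. The annotated CDKN2A and CDKN2B transcripts share an identical run of 80 bases, so that fragments of one can be counted for the other, and the low CDKN2A level is uncertain for that reason. MTAP (chr9:21802543-21937651, plus strand), 30.1 kb from CDKN2A, was at 0.146 and 0.1004 FPKM in PSN-1 with mimic and scramble, an estimated 13.8 and 7.52 fragments, and was listed at 0 in both MIA PaCa-2 libraries. The antisense RNA CDKN2B-AS1, which overlaps CDKN2B, was at 0.515 and 0.475 FPKM in PSN-1 and 0.0664 and 0.0649 FPKM in MIA PaCa-2; the sources used here do not give the strand setting of the counting, so that reads of the overlapping pair may be shared.

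The MIA PaCa-2 gap reached far beyond the 3 genes. Around CDKN2A, 28 consecutive protein-coding genes found in the files, SLC24A2 to TUSC1, stayed below 0.1 FPKM in MIA PaCa-2 with either oligonucleotide, a stretch of 6.17 Mb (chr9:19507452-25678440), and 27 of them were listed at 0 in both. Of the 28, 18 were at or near 0 in PSN-1 too, among them most of the interferon-alpha genes, which most cells keep silent until infected, and 4 were present in PSN-1. Besides CDKN2B these were MLLT3, a subunit of a transcription elongation complex, at 4.74 and 5.29 FPKM, FOCAD at 4.25 and 4.95 FPKM and HACD4, a fatty acid elongation enzyme, at 1.29 and 1.30 FPKM. These 4 genes lie within chr9:20341665-22009363. SLC24A2 at one end of the stretch, and ELAVL2 and IZUMO3 toward the other, were at or near 0 in both lines. The values therefore do not locate the ends of the MIA PaCa-2 gap. On either side of the stretch MIA PaCa-2 transcripts reappeared, with the ceramidase ACER2 at 2.39 and 3.06 FPKM and CAAP1 at 14.01 and 12.3 FPKM. KLHL9 stood at 0.833 and 1.01 FPKM in PSN-1 and was listed at 0 in MIA PaCa-2. Of 19024 protein-coding symbols, 25.0% were listed at 0 in both MIA PaCa-2 libraries and 18.8% in both PSN-1 libraries.

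PSN-1 had a shorter low stretch that stopped at CDKN2A. The 8 protein-coding genes IFNA6 to CDKN2A, over 645 kb, were under 1 FPKM in both PSN-1 libraries, 6 of them listed at 0. All 8 were at or near 0 in MIA PaCa-2 as well. The 6 were interferon genes listed at 0 in both lines, so most of the stretch is made up of genes without signal in either line. KLHL9, itself only at 0.833 and 1.01 FPKM in PSN-1, bounded the stretch on one side and CDKN2B on the other. CDKN2B, next to CDKN2A, was thus expressed in the line in which CDKN2A was nearly silent. The stretch was set at 1 FPKM after the values had been seen.

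Genes that work with the 9p21 products were called between the lines no more often than genes at large. Of 16 measured partners in the INK4-RB pathway, 4 were higher and 5 lower in PSN-1 than in MIA PaCa-2 by limma with Benjamini-Hochberg adjustment, with a median log2 difference of 0.030; over all 12423 genes, 29.2% were higher and 27.3% lower (56.4% called), with a median of 0.015. CDKN2C, which encodes the related inhibitor p18INK4C, was at 3.02 and 4.54 FPKM in PSN-1, against 52.4 and 91.3 FPKM in MIA PaCa-2 (log2 difference -3.90, SE 0.15, limma adjusted p = 0.000112). The lines did not overlap for CDKN2C, though the share of all genes without overlap was not counted. Cyclin D1 (CCND1) was higher in PSN-1 (0.99), as was CDKN1C (0.66), which encodes the inhibitor p57, a call lost under upper-quartile scaling (limma adjusted p = 0.0517). Cyclin D3 (CCND3) differed by 0.21 and was not called.

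In the ARF-MDM2 list, which shares genes such as MDM2 and CDKN1A with the previous one, 1 of the 8 was higher in PSN-1, the ubiquitin ligase gene HUWE1 (0.60), and 1 was lower, with a median of 0.032. Under upper-quartile scaling 0 were higher and 2 lower, since HUWE1 was then not called (limma adjusted p = 0.0536) and CARF was (adjusted p = 0.0485). MDM2 (0.40), the nucleolar ARF partner NPM1 (-0.24), CARF (-0.55, a symbol now used for a calcium-responsive transcription factor) and CDKN1A (-0.021) were not called. CARF was matched by symbol alone and may not be an ARF partner, but it stays in the counts and medians of this list. Of 14 genes of methionine salvage and its neighbour PRMT5, which is inhibited by the metabolite that accumulates without MTAP, 1 was higher and 5 lower in PSN-1 (median -0.13). That is 42.9% called, beside 56.4% of all genes, and the difference between these shares was not tested. Ornithine decarboxylase (ODC1) was higher, at 423 and 289 FPKM in PSN-1 against 172 and 152 FPKM in MIA PaCa-2. The salvage dioxygenase ADI1 (-1.38), spermine synthase SMS (-1.35) and the PRMT5 adaptor RIOK1 (-0.98) were lower, while the PRMT5 partner WDR77 (0.34) and the methionine adenosyltransferase MAT2A (-0.0085) were not called.

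**Figure D2:**
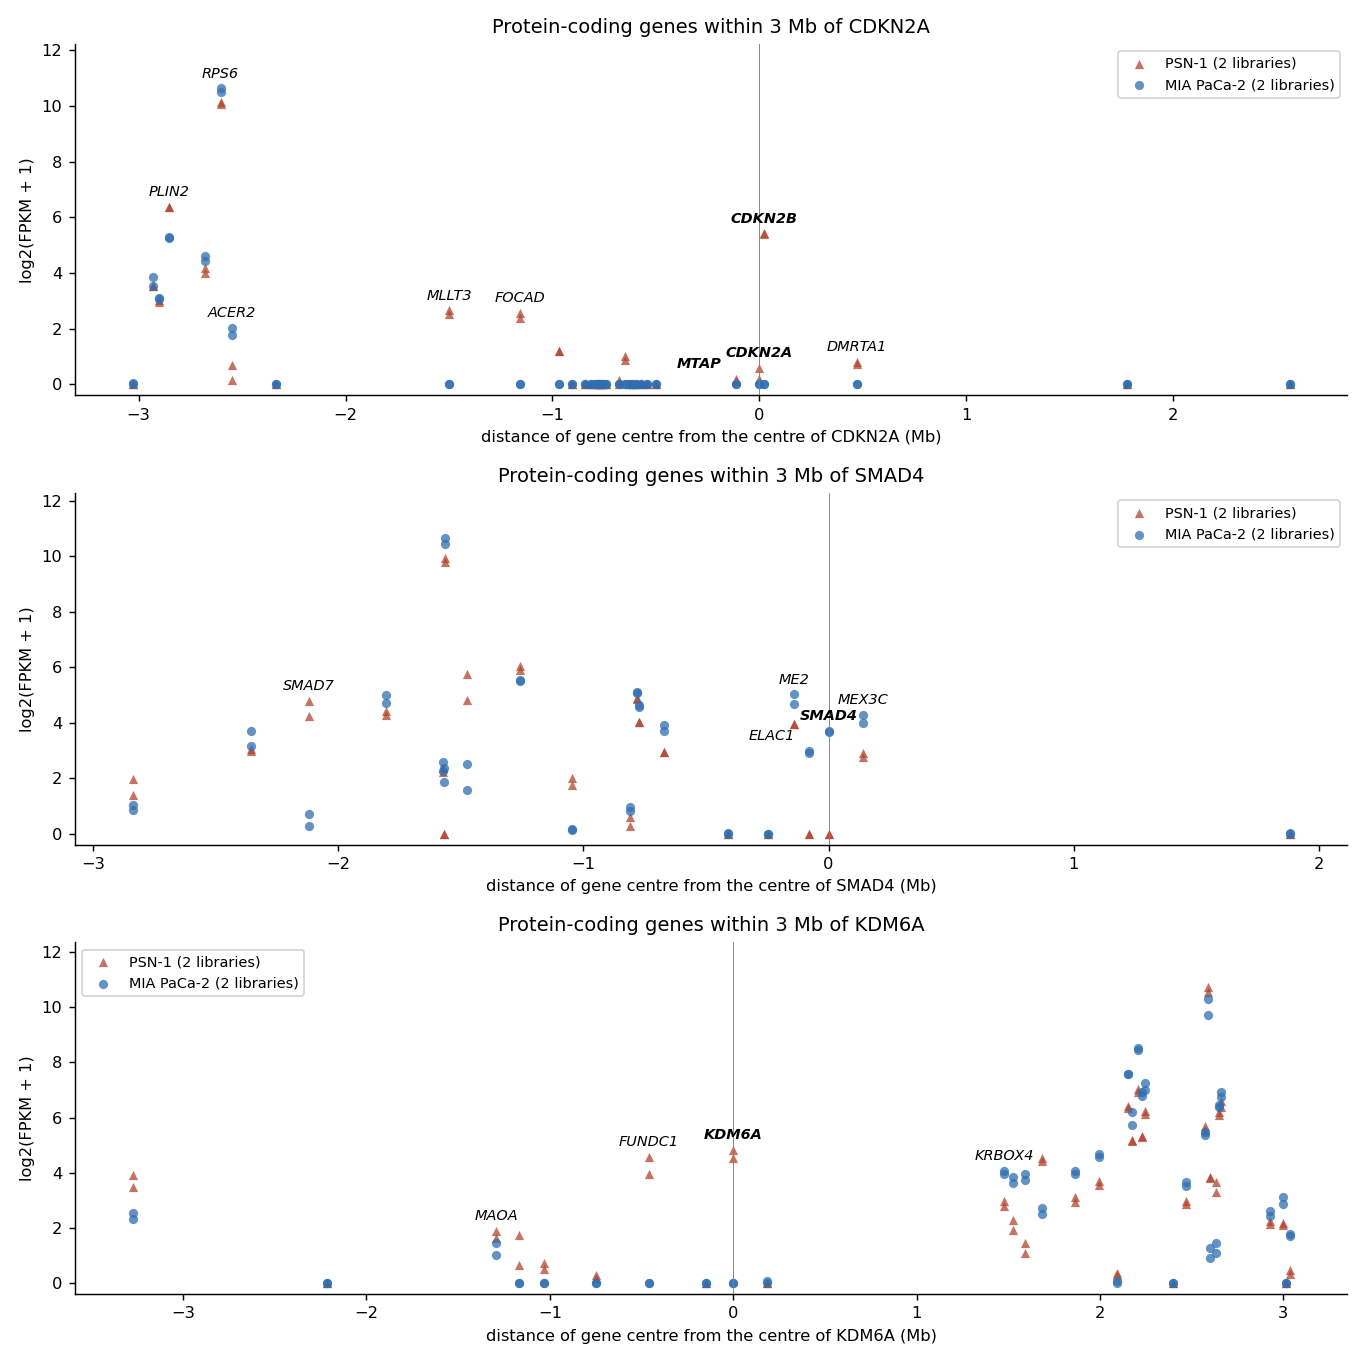
Levels of protein-coding genes around CDKN2A, SMAD4 and KDM6A, as log2(FPKM + 1), against the distance of each gene's centre from that of the named gene in Mb; each gene has 2 PSN-1 libraries (red triangles) and 2 MIA PaCa-2 libraries (blue circles). MIA PaCa-2 circles lie at or near 0 across the drawn part of the 6.17 Mb around CDKN2A and across the 1.43 Mb around KDM6A. PSN-1 triangles lie at 0 at ELAC1 and SMAD4 between expressed neighbours. Genes farther than 3 Mb, TUSC1 and CAAP1 among them, are not drawn.

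SMAD4 (chr18:51028394-51085045, plus strand) was listed at 0 in both PSN-1 libraries, against 11.9 FPKM with mimic and 11.7 FPKM with scramble in MIA PaCa-2, where an estimated 1449 and 1275 fragments were counted. If the listed 0 means that no fragment was counted, a limit of 3 fragments allows up to 0.0220 and 0.0277 FPKM in the PSN-1 libraries. The low stretch was narrow: ELAC1, which encodes a tRNA-processing ribonuclease 40.3 kb away, was also listed at 0 in both PSN-1 libraries, against 6.57 and 6.85 FPKM in MIA PaCa-2. ELAC1 and SMAD4 span 117 kb (chr18:50967991-51085045). The genes on both sides were expressed in PSN-1, with the mitochondrial malic enzyme ME2 at 14.4 and 14.4 FPKM, against 24.6 and 31.4 FPKM in MIA PaCa-2, and MEX3C at 6.42 and 5.75 FPKM, against 18.4 and 14.8 FPKM. Farther out within 1 Mb, MBD1, CXXC1 and SKA1 were present in both lines, and MYO5B was at 3.00 and 2.38 FPKM in PSN-1 and 0.0980 and 0.127 FPKM in MIA PaCa-2. Within 3 Mb 1 more symbol was listed at 0 in PSN-1 and present in MIA PaCa-2, the read-through RPL17-C18orf32 (2.66 and 4.10 FPKM in MIA PaCa-2), whose reads overlap those of RPL17 and are uncertain.

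Receptors, inhibitors and targets around SMAD4 differed strongly between the lines, and both TGF-beta receptors were higher in PSN-1, where SMAD4 was listed at 0. Of 23 measured genes of the list, 8 were higher and 8 lower in PSN-1 (median -0.098), where 56.4% of all genes were called. The type II receptor TGFBR2 was at 79.8 and 92.3 FPKM in PSN-1, against a listed 0 and 0.0178 FPKM in MIA PaCa-2, and the type I receptor TGFBR1 was at 41.1 and 34.8 FPKM in PSN-1, against 7.09 and 4.58 FPKM in MIA PaCa-2 (log2 difference 2.53). Neither receptor overlapped between the lines, a pattern whose share over all genes was not counted. The inhibitory SMAD7, which lies within 3 Mb of SMAD4, was at 17.9 and 26.6 FPKM in PSN-1, against 0.202 and 0.639 FPKM in MIA PaCa-2 (4.03), and the inhibitory SMAD6 at 14.1 and 25.2 FPKM, against 0.735 and 1.53 FPKM (3.25). The BMP targets ID3 and ID1 went the other way. ID3 was at 0.423 and 0.914 FPKM in PSN-1, against 228 and 214 FPKM in MIA PaCa-2 (log2 difference -7.07). ID3 passed the filter on the mean only through MIA PaCa-2, so its call restates these levels and no p is given. ID1 was at 14.3 and 21.6 FPKM in PSN-1, against 129 and 193 FPKM in MIA PaCa-2 (-3.10).

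KDM6A (chrX:44873177-45112602, plus strand) was at 27.3 FPKM with mimic and 22.2 FPKM with scramble in PSN-1, against a listed 0 in both MIA PaCa-2 libraries. If the listed 0 means that no fragment was counted, 3 fragments allow up to 0.0403 and 0.0451 FPKM in the MIA PaCa-2 libraries. Its neighbours were examined after this had been seen. The 7 consecutive protein-coding genes MAOB to CXorf36, over 1.43 Mb, stayed below 0.1 FPKM in MIA PaCa-2 with either oligonucleotide, and 6 of them were listed at 0. Besides KDM6A, 1 of the 7 was present in PSN-1, the mitophagy receptor gene FUNDC1, at 14.3 and 23.0 FPKM. The flanking genes were expressed in MIA PaCa-2, with monoamine oxidase A (MAOA) at 1.74 and 1.01 FPKM and KRBOX4 at 15.7 and 14.6 FPKM.

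KDM6A works with the KMT2C and KMT2D methyltransferase complexes and opposes Polycomb repressive complex 2. Of 14 genes of these complexes and the related demethylase KDM6B, 2 were higher and 3 lower in PSN-1 (median -0.19), where 56.4% of all genes were called. EED, a core Polycomb subunit, was at 17.2 and 15.5 FPKM in PSN-1, against 6.12 and 6.38 FPKM in MIA PaCa-2 (1.25), and KMT2D at 25.4 and 30.2 FPKM, against 11.2 and 16.1 FPKM (0.99). The complex subunit PAXIP1 (-1.36) and the Polycomb methyltransferase EZH1 (-1.01) were lower in PSN-1. KDM6B, at 31.2 and 25.1 FPKM in PSN-1 and 36.2 and 31.5 FPKM in MIA PaCa-2, was not called (-0.26), nor was NCOA6 (0.024).

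ARID1A (chr1:26693236-26782110, plus strand) was expressed in every library, at 23.5 and 25.9 FPKM in PSN-1 with mimic and scramble, against 21.6 and 34.8 FPKM in MIA PaCa-2. The lines overlapped, and the difference was not called (log2 difference -0.15, SE 0.17, limma adjusted p = 0.499); without the MIA PaCa-2 scramble library, and so without the oligonucleotide term, it was 0.19. Its paralogue ARID1B, which takes the same place in the complex, was at 13.0 and 13.3 FPKM in PSN-1, against a listed 0 in both MIA PaCa-2 libraries. Of the 21 other SWI/SNF subunits, 8 were higher and 11 lower in PSN-1 (median -0.57), where 29.2% of all genes were higher and 27.3% lower. ARID2, of the PBAF form of the complex, was higher (1.23), as were the ATPase SMARCA2 (0.90), at 6.44 and 7.09 FPKM in PSN-1 and 1.88 and 5.03 FPKM in MIA PaCa-2, and BRD9 (0.57). BCL7C (-1.61) and BCL7A (-1.40) were lower.

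RNF43 (chr17:58352500-58417595, minus strand) was at or near 0 in every library, at 0.0850 and 0.0893 FPKM in PSN-1 and 0.0634 and 0.0178 FPKM in MIA PaCa-2, which is an estimated 1.21 to 7.28 fragments each. At this depth no difference between the lines was detectable. Of 28 genes of its Wnt receptor pathway 21 were measured, of which 7 were higher and 6 lower in PSN-1 (median 0.10), a share near the 56.4% of all genes. The R-spondin receptor LGR4 was at 39.8 and 52.2 FPKM in PSN-1, against 2.01 and 3.58 FPKM in MIA PaCa-2 (3.65), and the Wnt co-receptor LRP5 at 155 and 192 FPKM, against 20.01 and 22.8 FPKM (2.95). The Frizzled receptor FZD8 was at 0.252 and 0.0794 FPKM in PSN-1, against 59.1 and 34.9 FPKM in MIA PaCa-2 (-5.32), and the transcription factor TCF7L1 was lower in PSN-1 as well (-3.31).

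BRCA2 (chr13:32315474-32400266, plus strand) was at 3.70 and 4.21 FPKM in PSN-1 with mimic and scramble, against 3.54 and 4.82 FPKM in MIA PaCa-2. The lines overlapped, and the difference was not called (-0.055, SE 0.17, limma adjusted p = 0.797); it was 0.12 without the MIA PaCa-2 scramble library and 0.020 without the PSN-1 mimic library. FRY, 16.4 kb away, was at 1.44 and 1.495 FPKM in PSN-1 and at a listed 0 and 0.0150 FPKM in MIA PaCa-2, and is named after its values were seen. Of 23 partners of BRCA2 in homologous recombination, 4 were higher in PSN-1 and 3 were lower (median 0.017), where 56.4% of all genes were called. XRCC2 (0.91) and NBN (0.82) were higher, and RAD52 (-1.06) and FANCA (-0.96) were lower.

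Of the 8 genes, 5 passed the filter of 1 FPKM on the mean of all libraries, and limma called 3 of these between the lines, where 56.4% of all genes tested were called. The 3 were CDKN2B, KDM6A and SMAD4, each of which passed the filter through the line in which it was present and was listed at 0 in the other. Their calls therefore restate the presence and absence given above, and no size or p is given for them. Calls of list genes under 1 FPKM in both libraries of 1 line, such as ARID1B, TGFBR2, SMAD7, ID3, FZD8 and TCF7L1, likewise restate their levels. Among 25 other genes mutated in pancreatic tumours, 10 were higher and 5 lower in PSN-1 (median 0.14), a share near that of all genes. The splicing regulator RBM10 was lower (-0.81), and neither BRCA1 (0.035) nor the kinase MAP2K4 (-0.41) was called; under upper-quartile scaling MAP2K4 was (limma adjusted p = 0.0403).

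**Figure D3:**
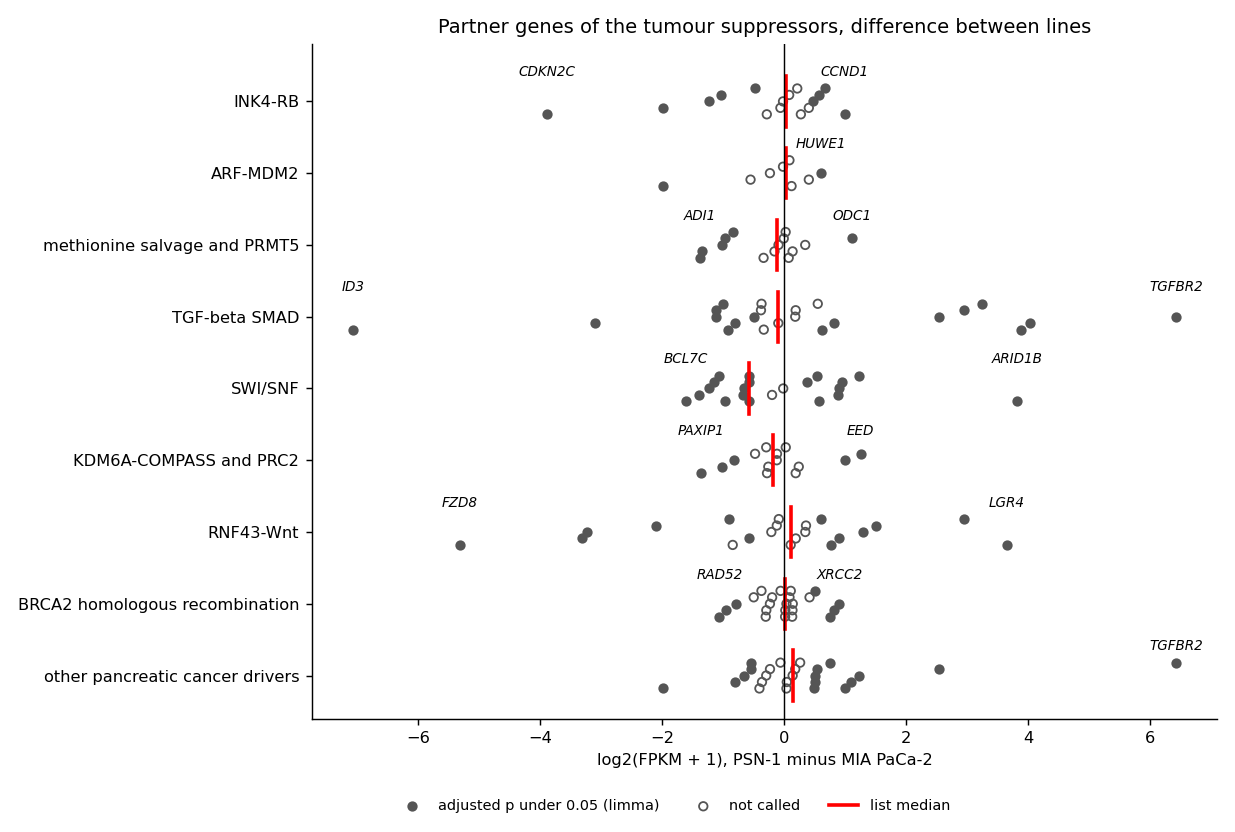
Differences of the genes in 9 lists of partner genes between the lines (horizontal axis, PSN-1 minus MIA PaCa-2 on the log2(FPKM + 1) scale), 1 circle per gene, filled where the limma adjusted p was under 0.05, with the list median as a red line. The circles spread from ID3 at -7.07 to TGFBR2 at 6.43, and the list medians lie between -0.57 and 0.14.

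Mimic and scramble levels differed most for ARID1A in MIA PaCa-2 among the expressed members. In MIA PaCa-2, with 1 library per group and hence no test, ARID1A was at 21.6 FPKM with mimic and 34.8 FPKM with scramble (log2 change -0.66, estimated counting SE 0.037), and it was the 1 of 3 expressed members past 1.5-fold; 4.06% of 11484 genes were lower by that much in MIA PaCa-2 and 5.43% higher. It was not past 2-fold, which 0.81% of genes were downwards and 1.31% upwards. BRCA2 was at 3.54 FPKM with mimic and 4.82 FPKM with scramble (-0.36, counting SE 0.080), and SMAD4 was at 11.9 and 11.7 FPKM (0.020, counting SE 0.055). In this line 2.94% of genes had a lower change than ARID1A and 10.6% a lower change than BRCA2.

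In PSN-1, 0 of the 4 expressed members passed 1.5-fold, where 3.87% of 12233 genes were lower and 3.17% higher by that much, and past 2-fold 0.777% were lower and 0.85% higher. KDM6A was at 27.3 FPKM with mimic and 22.2 FPKM with scramble (0.29, counting SE 0.048). ARID1A was at 23.5 and 25.9 FPKM (-0.13, counting SE 0.038), BRCA2 at 3.70 and 4.21 FPKM (-0.15, counting SE 0.079) and CDKN2B at 40.7 and 41.9 FPKM (-0.041, counting SE 0.044). ARID1A and BRCA2 thus had lower values with mimic in both lines. In PSN-1, however, 32.3% of genes had a lower change than ARID1A and 30.3% a lower change than BRCA2. The share of all genes with lower values in both lines was not counted. The CDKN2A values of 0.132 and 0.499 FPKM rest on too few fragments for a difference to be detectable, and so do those of MTAP.

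With both lines in 1 limma fit, 0 of the 5 members were called for the mimic, and 0 had an unadjusted p under 0.05, while 0.0563% of all genes tested were called, 0.0483% higher and 0.00805% lower with mimic. ARID1A had a mean log2 change of -0.40 (SE 0.17, adjusted p = 0.620) and BRCA2 of -0.25 (SE 0.17, adjusted p = 0.745). For KDM6A (0.14, adjusted p = 0.862), CDKN2B (-0.020, adjusted p = 0.984) and SMAD4 (0.010, adjusted p = 0.992) this mean takes in a change of 0 from the line in which the gene was listed at 0.

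**Figure D4:**
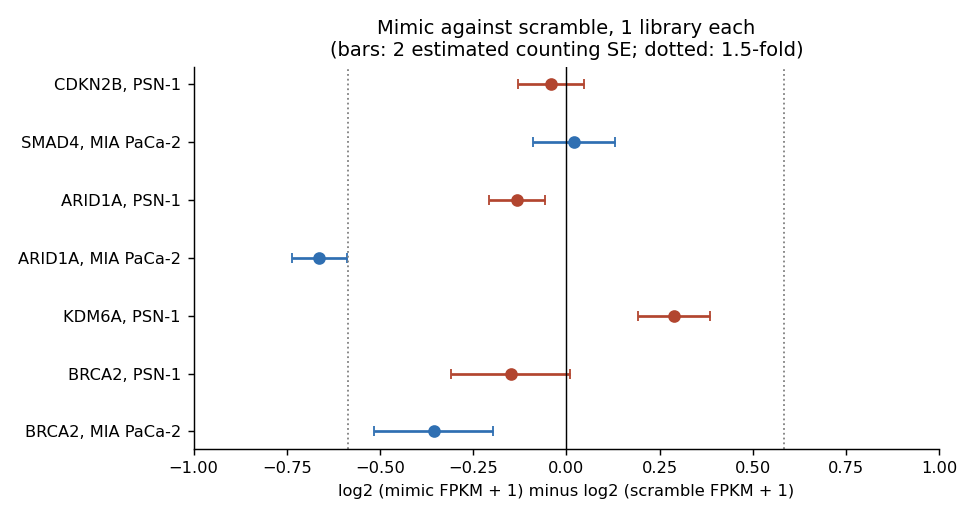
Mimic minus scramble change on the log2(FPKM + 1) scale of each tumour suppressor gene that was expressed in a line, PSN-1 in red and MIA PaCa-2 in blue; points are 1 library against 1 library, bars are 2 estimated counting SE and cover counting error only, and dotted lines mark 1.5-fold. ARID1A in MIA PaCa-2, at -0.66, lies past the dotted line and the other points lie between the lines.

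None of the genes in the 9 partner lists was called for the mimic by limma. Between 0 and 4 genes a list had an unadjusted limma p under 0.05, beside 8.44% of all genes tested. The most were 4 of 16 in INK4-RB and 4 of 21 in SWI/SNF, while the ARF-MDM2 list (8 genes) and the KDM6A list (14 genes) had 0. The list medians of the mean mimic change ran from -0.10 for homologous recombination to 0.087 for the ARF-MDM2 list, beside 0.0025 over all genes. In MIA PaCa-2, 18 of the 23 homologous recombination genes had lower values with mimic (median -0.15, all genes 0.015), and in PSN-1 13 of 23 (median -0.027, all genes -0.016). The share of all genes with lower values in each line was not counted, and these counts were not tested. BRIP1, the BRCA1-associated helicase, had the lowest mean change of the 23 genes (-0.43), at 3.27 FPKM with mimic and 5.45 FPKM with scramble in MIA PaCa-2 and 2.38 and 3.07 FPKM in PSN-1, and RAD51D the highest (0.36). In the INK4-RB list CDKN2C was lowest (-0.63) and CCND3 highest (0.81), at 28.4 FPKM with mimic and 17.3 FPKM with scramble in MIA PaCa-2 and 36.2 and 18.5 FPKM in PSN-1. Cyclin D3 had higher values with mimic in both lines, without being called (limma adjusted p = 0.304). The remaining extremes were SMAD6 (-0.67) and TGFBR1 (0.38) in the TGF-beta list, SMARCA2 (-0.59) and BRD9 (0.19) in SWI/SNF, RIOK1 (-0.34) and MAT2A (0.51) in methionine salvage, NCOA6 (-0.48) and KDM6B (0.25) in the KDM6A list, LGR4 (-0.50) and FZD8 (0.48) in the Wnt list, NPM1 (-0.10) and CDKN1A (0.21) in the ARF-MDM2 list, and BRCA1 (-0.42) and MAP2K4 (0.51) among the other drivers.

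The genes whose profile over the 4 libraries lay closest to each expressed member, by Euclidean distance of mean-centred log2(FPKM + 1) values, were as follows. CDKN2B was nearest to CNN3 (distance 0.053), which was at 44.7 and 48.1 FPKM in PSN-1 and 0.147 and 0.139 FPKM in MIA PaCa-2, and to ANPEP (0.16). KDM6A was nearest to PRSS3 (0.048) and to EPCAM (0.095). SMAD4 was nearest to LPPR3 (0.079), at 0.0573 FPKM and a listed 0 in PSN-1 and 12.3 and 11.5 FPKM in MIA PaCa-2, and to CHST3 (0.16). ARID1A lay closest to MTFR2 (0.054) and SPDL1 (0.063), and BRCA2 to HOXB7 (0.023) and ZNF576 (0.034). With 4 libraries many genes share such a profile.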

How the data were processed

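RNA was sequenced from 4 libraries, 1 per cell line and oligonucleotide, made per the labels' protocols with a TruSeq stranded mRNA kit. Per the file headers, the authors deposited an FPKM value for each gene symbol. TopHat2 2.1.1, Cuffdiff 2.2.1 and hg19 are named per the submitters' processing notes, without their roles; the sources used here give no annotation, strand setting or scaling. FPKM holds no counts, so fragment numbers are estimates: the depth was inferred from the steps of low values, with transcript lengths from GENCODE 29 and a fragment length of 200 bases assumed. Intervals and floors cover counting error only.

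Members and lists were chosen with earlier results of these data known. The lines were compared with limma 3.58.1 (R 4.3.3; lmFit and eBayes with a trend, two-sided, Benjamini-Hochberg, adjusted p under 0.05) on log2(FPKM + 1), for the 12423 genes averaging 1 FPKM or more across all libraries, with the oligonucleotide as a term. That filter removed CDKN2A, MTAP and RNF43. The mimic effect is the other coefficient of this fit, with the line as a block. The 1 residual degree of freedom left is the difference between the lines in their mimic change. The labels give no replicate numbers, so the cell line is the only pairing. Fold changes on this scale understate the change of low genes. The limma procedure was tested on simulated data with independent normal errors and no mimic effect, which cannot show its error rate in these data. Named list genes are the 2 highest and 2 lowest line differences and the highest and lowest mimic change of each list. Named neighbours within 1 Mb reached 1 FPKM in 1 library, and those within 3 Mb were present in 1 line and near 0 in the other. Results for some list genes are not reported here, though the genes stay in the counts. Others are said to be named after their values were seen. Each gene's likeness is over 4 libraries. Promoter and microRNA sequences are from RefSeq; all 8 genes had a promoter entry, and none of the coordinates was converted from hg19. Alternatives in pseudocount, filter, scaling, model terms and left-out libraries were tried.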

Additional observations from a re-analysis of the deposited data

How the results depend on the processing

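CDKN2B, KDM6A and SMAD4, each listed at 0 in 1 line, could not change direction under any alternative, and with a mean of at least 1 FPKM required in each line they gave no value; with the 5 FPKM filter BRCA2 gave none. The ARID1A line difference ran from -0.48 to 0.19 and that of BRCA2 from -0.23 to 0.12 when 1 library was left out and the oligonucleotide term with it, where the lone library of a line is assumed to vary like the others; BRCA2 was 0.020 without the PSN-1 mimic library. The cause was not tested. Leaving out 1 library called 1594 to 2638 genes higher and 882 to 2097 lower in PSN-1, against 3427 and 3142 with all 4 libraries and likewise no oligonucleotide term, and 3624 and 3388 with it; the counts fell most without the PSN-1 mimic library (1594 and 882) or the PSN-1 scramble library (1602 and 924).

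For the mimic in both lines, 6 genes were higher and 1 lower. With no filter on low values 0 and 0 were called (559 and 557 at an unadjusted p under 0.05), with no block for the line 0 and 0 (23 and 21), and without the trend 5 and 0 (451 and 473). Past 2-fold, MIA PaCa-2 had 151 higher and 93 lower genes, but 249 and 178 with a pseudocount of 0.1, and 54 lower with the 5 FPKM filter, where fewer genes were tested. PSN-1 had 104 and 95, but 176 and 173 with a pseudocount of 0.1, and 59 and 61 with the 5 FPKM filter. With presence levels of 0.5 and 2 FPKM, 4 members instead of 2 were at or near 0 in PSN-1. Upper-quartile scaling, chosen for the lists after seeing the data, turned the medians of the INK4-RB (-0.0053), ARF-MDM2 (-0.0035) and homologous recombination lists (-0.011) below 0, as it did the median of all genes (-0.022, against 0.015). The line was the only pairing, and the fit with it as a block is the one reported. Depth limits CDKN2A, MTAP and RNF43, each at 13.8 or fewer estimated fragments a library.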
